A study of Mus musculus with 3 samples.

Results

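The 9 genes described here are the Id genes Id1, Id2, Id3 and Id4 and 5 feedback inhibitors of bone morphogenetic protein (BMP) signalling, Smad6, Smad7, Bambi, Nog and Grem1. They were taken by gene name from the scanner files of 2-colour microarrays, with every probe of each gene, and not by any measured value. They had 13 probes of 41174 on the array and 9 of its 27670 gene names. The tissue was microdissected ectoderm of the mouse otic placode, the patch of head ectoderm that forms the inner ear, from untreated embryos of 4 to 8 somites. Double null ectoderm (Fgf3-/-;Fgf10-/-) lacked both working copies of Fgf3 and Fgf10, 2 secreted growth factors of the FGF family needed for inner ear induction, and double heterozygote ectoderm (Fgf3+/-;Fgf10+/-) carried 1 working copy and 1 null allele of each. Neither group was wild type, so the values compare the loss of the last copies with the heterozygous state. Each genotype gave 3 biological pools of 10 placodes, and each of 3 arrays held 1 pool of each genotype, the double null in Cy5 and the double heterozygote in Cy3 on every array, so that dye and genotype cannot be told apart. The strain and the sex of the embryos are not given in the sources used here.

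Id proteins are helix-loop-helix proteins without a DNA-binding region. They bind E proteins and keep them and their tissue-specific partners off DNA, which holds cells back from differentiating. BMP receptors phosphorylate Smad1, Smad5 and Smad9, which enter the nucleus with Smad4 and switch on Id1, Id2 and Id3 directly in many cell types. The same signal switches on its own inhibitors: Smad6 and Smad7 block the receptors or the Smads inside the cell, Bambi is a decoy receptor without a kinase, and Noggin (Nog) and Gremlin 1 (Grem1) are secreted proteins that bind BMPs. BMP and FGF signals both act on the head ectoderm in which placodes, neural crest and epidermis form.

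The arrays read each gene through probes of 60 bases. The 4 shown here are those of an Id gene whose probe spans a longer stretch of genome (Id2 probe 2 and Id3), of an inhibitory Smad and of a secreted antagonist, and they are given as deposited, 5′ to 3′, with positions on the mouse build mm7. Id2 probe 2 lies at chr12:22931820-22932167 on the minus strand and Id3 at chr4:135522597-135522771 on the plus strand. Both match split stretches, since 60 bases span 348 bases of genome for Id2 and 175 for Id3. Smad6 lies at chr9:63982002-63982061 and Nog at chr11:89410574-89410633, both on the minus strand. An exon annotation of mm7 was not used here.
Id2 probe 2: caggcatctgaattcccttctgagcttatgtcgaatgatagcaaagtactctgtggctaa
Id3: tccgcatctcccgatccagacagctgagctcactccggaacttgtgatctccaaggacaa
Smad6: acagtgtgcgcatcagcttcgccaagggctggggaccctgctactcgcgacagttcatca
Nog: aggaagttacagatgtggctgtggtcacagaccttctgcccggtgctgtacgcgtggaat

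On every array, 12 of the 13 probes gave signals well above background for both genotypes, so every gene was measured. The exception was the second Bambi probe, at chr18:3681938-3681997, which was not well above background in either channel on any array and was not tested. Each probe was tested in 1 fit over 25506 probes, with limma and Benjamini-Hochberg adjustment over all of them and a threshold of 0.05. All ratios are log2 ratios of double null over double heterozygote with their standard error (SE, n = 3 arrays). The SE and the intervals are limma's moderated ones, which also draw on the spread between arrays of all tested probes. All levels are normalized log2 intensities per pool, which are compared within a probe and not between probes.

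None of the 12 probes passed the threshold (limma), against 1.51% of all probes tested. At an unadjusted p under 0.05 there were 3, both Id4 probes and Smad7, or 3 of 12 against 20.2% of all probes. The ratio had 1 sign on all 3 arrays for 7 of 12 probes, against 43.8% of all probes, and the levels of the genotypes did not overlap for 3 of 12, against 16.4%. Their median ratio was 0.02, from -0.30 to 0.25, with 6 probes below 0 and 6 above, beside a median of 0.01 over all probes. The 7 Id probes had a median of -0.04, with 6 below 0, and the 5 feedback probes a median of 0.10, with 5 above 0. These signs hold for arrays normalized by loess, which sets the bulk of probes at 0. Median centring instead set the median of all non-control spots of an array at 0, dim spots included. All 12 ratios were then above 0, as was the median of the 25506 tested probes, at 0.33. The 95% interval of the fold lay within 0.8 to 1.25 for 9 of 12 probes, against 85.1% of all probes, a range set after the values were seen. The 3 probes outside it were again both Id4 probes and Smad7.

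**Figure D1:**
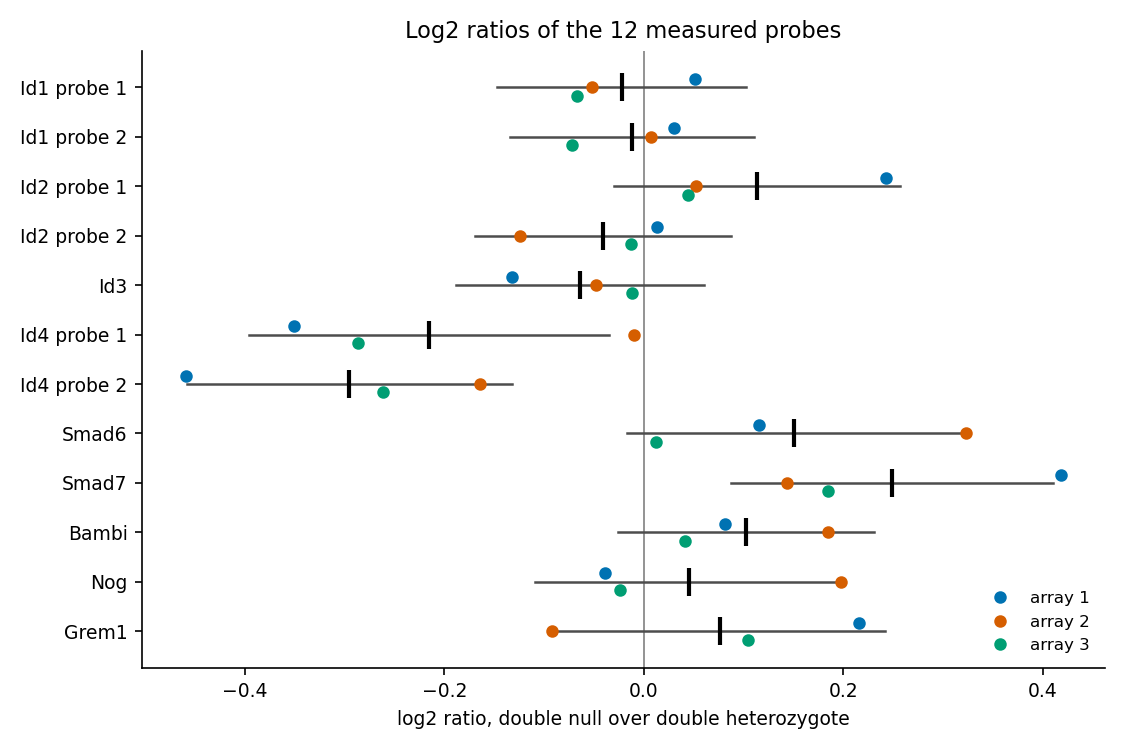
Log2 ratio of double null over double heterozygote for the 12 measured probes, with 1 point per array, the mean as a tick and its 95% interval (limma, n = 3) as a line. The intervals of both Id4 probes lie below 0 and that of Smad7 above 0, while the other 9 intervals include 0, all after loess; with median centring all 12 means were above 0.

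Id1, Id2 and Id3, the members of the family most widely used as a readout of BMP signalling, gave means near 0. Id1 probe 1 (chr2:152478157-152478216, plus strand) had levels of 14.68, 14.69 and 14.66 in double null pools, against 14.63, 14.74 and 14.72 in double heterozygote pools of the same arrays. The genotypes overlapped, and the double null was above the double heterozygote on array 1 and below it on arrays 2 and 3. Its ratio was -0.02 ± 0.052, a fold of 0.985 with a 95% interval of 0.903 to 1.07 (limma adjusted p = 0.840). Id1 probe 2 (chr2:152478167-152478226) shares 50 of its 60 bases with probe 1 and is a near repeat of it rather than a second view. It gave -0.01 ± 0.051 (limma adjusted p = 0.921). The intervals of both Id1 probes together ran from -9.73% to 7.95% as a change in intensity.

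Id2 had probes at separate positions. Probe 1 (chr12:22930541-22930600, minus strand) had levels of 15.003, 14.92 and 14.78 in double null pools, against 14.76, 14.87 and 14.73 in double heterozygote pools. The double null was higher on each array, by 0.24, 0.05 and 0.04, and the genotypes overlapped over the arrays. The ratio was 0.11 ± 0.060, a fold of 1.08 with an interval of 0.979 to 1.195 (limma adjusted p = 0.338), and without array 1 the ratio was 0.05. Id2 probe 2, printed above, had levels of 13.60, 13.60 and 13.64 in double null pools, against 13.59, 13.72 and 13.65 in double heterozygote pools. Its ratio was -0.04 ± 0.053, with an interval of the fold from 0.889 to 1.06 (limma adjusted p = 0.700). The Id2 probes differed in sign of the mean: probe 1 was above probe 2 by 0.23, 0.18 and 0.06 on the 3 arrays (mean 0.15, SD 0.088), and their joint mean was 0.04.

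Id3 had levels of 14.04, 13.89 and 13.95 in double null pools, against 14.17, 13.94 and 13.96 in double heterozygote pools. The ratios were -0.13, -0.05 and -0.01, so after loess the double null was lower on all 3 arrays, and the genotypes overlapped. The ratio was -0.06 ± 0.052, a fold of 0.956 with an interval of 0.877 to 1.04 (limma adjusted p = 0.525), and without array 1 the ratio was -0.03. Over the 5 probes of Id1, Id2 and Id3 the 95% intervals ran from -12.3% (Id3) to 19.5% (Id2 probe 1).

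Id4, the family member best known from neural progenitors, had the largest differences from 0 among the Id probes. Probe 2 (chr13:47746630-47746689, plus strand) had levels of 10.17, 10.39 and 10.43 in double null pools, against 10.63, 10.56 and 10.69 in double heterozygote pools. Every double null pool lay below every double heterozygote pool. The ratio was -0.30 ± 0.068, a fold of 0.815 with an interval of 0.728 to 0.912 (limma unadjusted p = 0.0039, adjusted p = 0.097). Probe 1 (chr13:47746118-47746177) had levels of 11.27, 11.41 and 11.47 in double null pools, against 11.62, 11.42 and 11.75 in double heterozygote pools. The ratios were -0.35, -0.01 and -0.29 on the 3 arrays, with array 2 near 0 and the highest double null pool above the lowest double heterozygote pool. The ratio was -0.22 ± 0.075, a fold of 0.861 with an interval of 0.760 to 0.976 (limma unadjusted p = 0.026, adjusted p = 0.189). The Id4 probes were thus below 0 on 3 of 3 arrays each, with a joint mean of -0.26 after loess, and neither passed the adjusted threshold. With median centring they gave 0.24 and 0.11, below the median of 0.33 over the tested probes. They read the same RNA pools and are not replicates of each other.

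The promoters of the Id genes are shown because the GC-rich element GGCGCC, in reach of a GTCT, is the textbook Smad1 and Smad5 response element of Id1, and because CANNTG, the E-box, is what E proteins bind. They are the 250 bases upstream of the annotated start in RefSeq GRCm38.p6, 5′ to 3′ on the strand of the gene, with matches to GGCGCC and CANNTG in capitals. Of the 9 genes, 5 had a window (Id2, Id3, Id4, Smad6 and Grem1). The windows are chr12:25096093-25096342 (minus strand) for Id2, chr4:136143572-136143821 (plus strand) for Id3 and chr13:48260866-48261115 (plus strand) for Id4.
Id2: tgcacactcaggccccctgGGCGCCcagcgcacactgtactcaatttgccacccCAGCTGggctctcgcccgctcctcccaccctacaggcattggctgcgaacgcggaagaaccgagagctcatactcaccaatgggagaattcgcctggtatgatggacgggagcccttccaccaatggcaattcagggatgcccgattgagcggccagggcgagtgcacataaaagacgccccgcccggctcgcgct
Id3: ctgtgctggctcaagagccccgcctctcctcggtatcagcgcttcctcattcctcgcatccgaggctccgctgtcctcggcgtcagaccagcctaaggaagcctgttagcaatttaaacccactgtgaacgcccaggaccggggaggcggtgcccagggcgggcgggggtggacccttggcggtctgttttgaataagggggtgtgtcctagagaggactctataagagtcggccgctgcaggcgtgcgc
Id4: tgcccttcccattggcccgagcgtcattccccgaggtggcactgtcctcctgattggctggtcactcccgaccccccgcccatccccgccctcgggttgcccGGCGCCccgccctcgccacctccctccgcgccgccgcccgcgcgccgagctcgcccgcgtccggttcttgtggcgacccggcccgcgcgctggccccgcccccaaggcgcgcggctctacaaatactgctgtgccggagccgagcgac

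GGCGCC occurred in the windows of Id2, Id4 and Grem1 and in neither of the others, while 9.59% of 32851 windows held it. The window of Id2 held 1 E-box and the other 4 windows none, while 66.2% of all windows held one. Motifs were searched on both strands. GTCT was found in the windows of Id2, Id3, Smad6 and Grem1 and in 82.9% of all windows. GGCGCC followed by GTCT after 5 bases was in none of the 5 windows and in 0.0700% of all. Id1, the gene of that element, had no window, and sequence farther upstream than the windows was not searched. Absence of a motif from these short windows therefore does not show that a gene lacks it. GC content was 62.8% for Id2, 62.8% for Id3 and 75.6% for Id4. A match is a stretch of letters and no measured site.

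Smad7, the inhibitory Smad that acts on both BMP and TGF-beta receptors, had the largest mean among the feedback genes. Its probe (chr18:75791017-75791076, plus strand) had levels of 9.82, 9.79 and 9.82 in double null pools, against 9.40, 9.64 and 9.64 in double heterozygote pools. Every double null pool lay above every double heterozygote pool, and the double heterozygote pools varied more than the double null pools. The ratio was 0.25 ± 0.067, a fold of 1.19 with an interval of 1.06 to 1.33 (limma unadjusted p = 0.0088, adjusted p = 0.129), and the ratio was 0.16 without array 1. Smad6, which acts mainly on BMP receptors and Smads, had levels of 9.20, 9.19 and 9.13 in double null pools, against 9.09, 8.86 and 9.12 in double heterozygote pools. The genotypes did not overlap, by a small margin, and array 2 carried most of the difference, with ratios of 0.12, 0.32 and 0.01 on the 3 arrays. The mean was 0.15 ± 0.070, a fold of 1.11 with an interval of 0.988 to 1.25 (limma adjusted p = 0.285), and it was 0.06 without array 2.

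Bambi was read by a probe printed on 10 spots of each array (chr18:3678385-3678444, plus strand). Its levels were 11.32, 11.48 and 11.59 in double null pools, against 11.24, 11.29 and 11.55 in double heterozygote pools. The double null was higher on every array, by 0.08, 0.18 and 0.04, while array 3 was high in both genotypes and the groups overlapped. The SD of the ratio over the 10 spots of an array was 0.027, 0.015 and 0.023, against an SD of 0.074 over arrays. The arrays thus differed more than the spots of 1 array. The ratio was 0.10 ± 0.053, a fold of 1.07 with an interval of 0.982 to 1.17 (limma adjusted p = 0.333), and it was 0.06 without array 2.

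The secreted antagonists gave ratios of both signs over the arrays. Nog had levels of 7.96, 7.79 and 7.83 in double null pools, against 8.00, 7.59 and 7.85 in double heterozygote pools. The double null was lower on arrays 1 and 3 and higher on array 2, and the mean of 0.04 ± 0.064 (fold 1.03, interval 0.927 to 1.15, limma adjusted p = 0.729) rests on array 2: without it the value was -0.03. Grem1 (chr2:113599308-113599367, minus strand) had levels of 7.63, 7.62 and 7.46 in double null pools, against 7.42, 7.71 and 7.35 in double heterozygote pools. The double null was higher on arrays 1 and 3 and lower on array 2. The ratio was 0.08 ± 0.069, a fold of 1.05 with an interval of 0.939 to 1.18 (limma adjusted p = 0.572), and it was 0.0061 without array 1 and 0.16 without array 2.

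**Figure D2:**
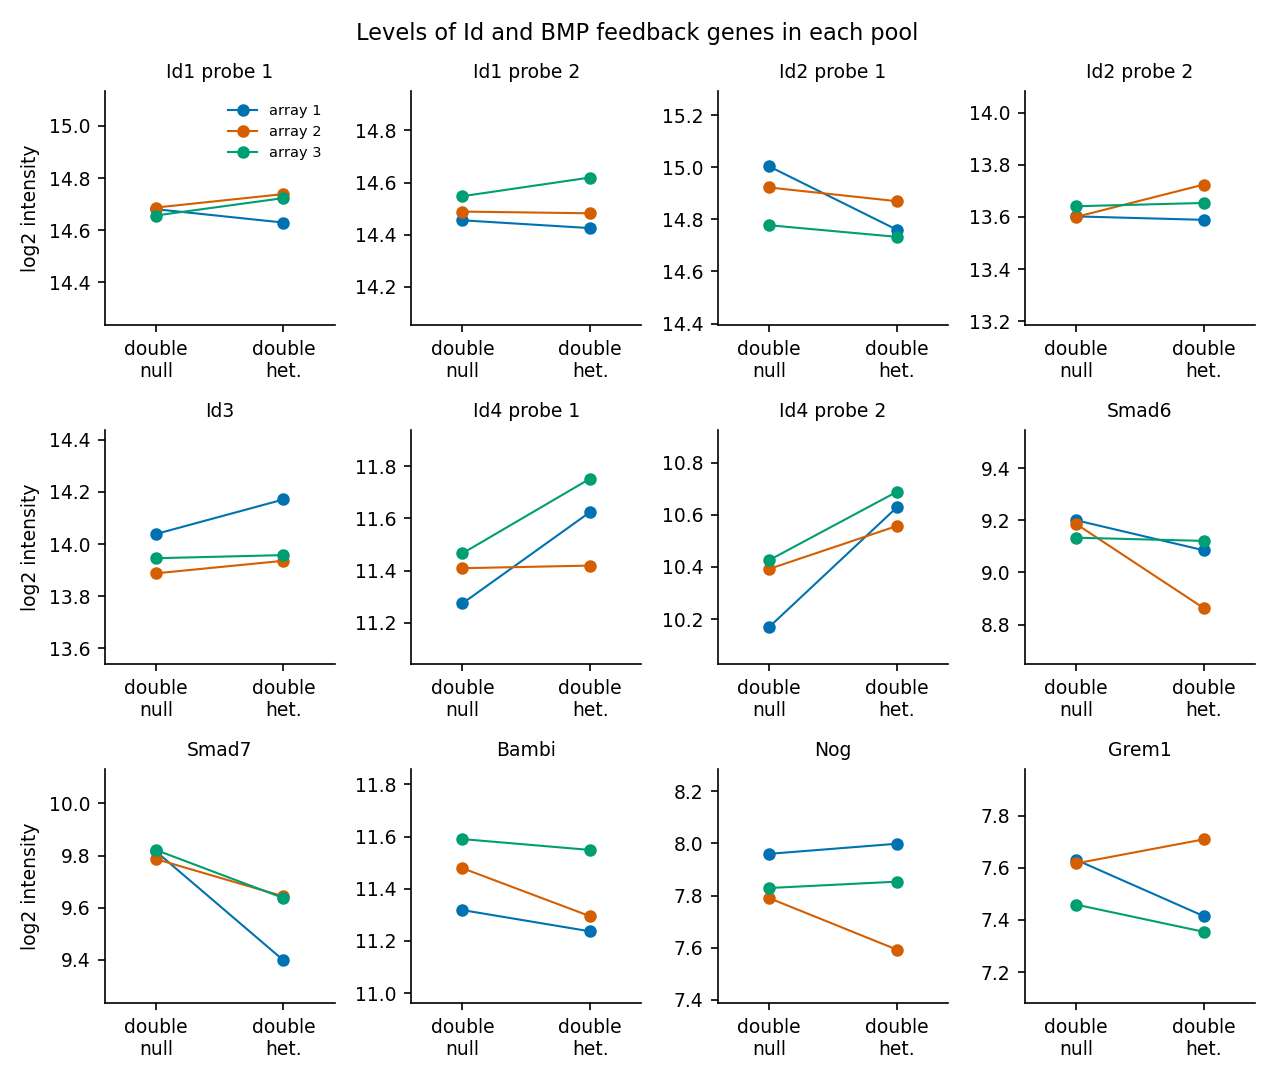
Normalized log2 intensity of each measured probe in double null (left) and double heterozygote (right) pools, with lines joining the pools of 1 array; each panel spans 0.9 log2 units. After loess, double null pools lie below double heterozygote pools on every array for Id3 and both Id4 probes (above them in the mean with median centring). They lie above double heterozygote pools on every array for Id2 probe 1, Smad6, Smad7 and Bambi. The lines run both ways for both Id1 probes, Id2 probe 2, Nog and Grem1.

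Brightness, the software's own processing and the choice of the zero line were compared for the same probes. Probes above a mean log2 intensity of 15 had a median ratio of 0.19 and 29.7% of them were called, against 0.31% to 1.32% in the bins below. None of the 12 probes lay there, and Id2 probe 1, at 14.84, came nearest. In the bin from 14 to 15, which also holds both Id1 probes, the median was -0.03. Ratios from the scanner software's own processed intensities, averaged over the 3 arrays, were -0.05 and -0.06 for the Id1 probes, 0.09 and -0.02 for Id2, -0.03 for Id3, -0.23 and -0.34 for Id4, 0.15 for Smad6, 0.27 for Smad7, 0.10 for Bambi, 0.05 for Nog and 0.12 for Grem1. These means had the sign of the main values for all 12 probes. On array 3, however, the processed ratio was 0.03 for Id3 and -0.03 for Smad6, so the arrays of these genes differed in sign there. All these values set the bulk of probes at about 0. Median centring of each array over all its non-control spots, in place of the loess curve, left the median of the tested probes at 0.33. With it 9 of the 12 probes were called higher, against 67.4% of all probes tested. Relative to the median of the tested probes there, Id2 probe 1 lay farthest out, at 0.53, followed by the Id1 probes at 0.38 and 0.37. Id3 and Smad7 lay at 0.26, Id2 probe 2 at 0.24, Bambi at 0.23 and Smad6 at 0.10, while Id4 lay at -0.09 (probe 1) and -0.22 (probe 2). Nog at -0.21 and Grem1 at -0.25 lay below that median, and Id1, Id2 probe 2 and Id3 above it, each with the sign opposite to its mean after loess. Median centring, unlike loess, leaves any trend of the ratio with intensity in place. Id2 probe 1 and the Id1 probes (14.84, 14.68 and 14.50) were the brightest of the 12 probes. Nog (7.84) and Grem1 (7.53) were the dimmest. The part of brightness in these values was not tested.

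**Figure D3:**
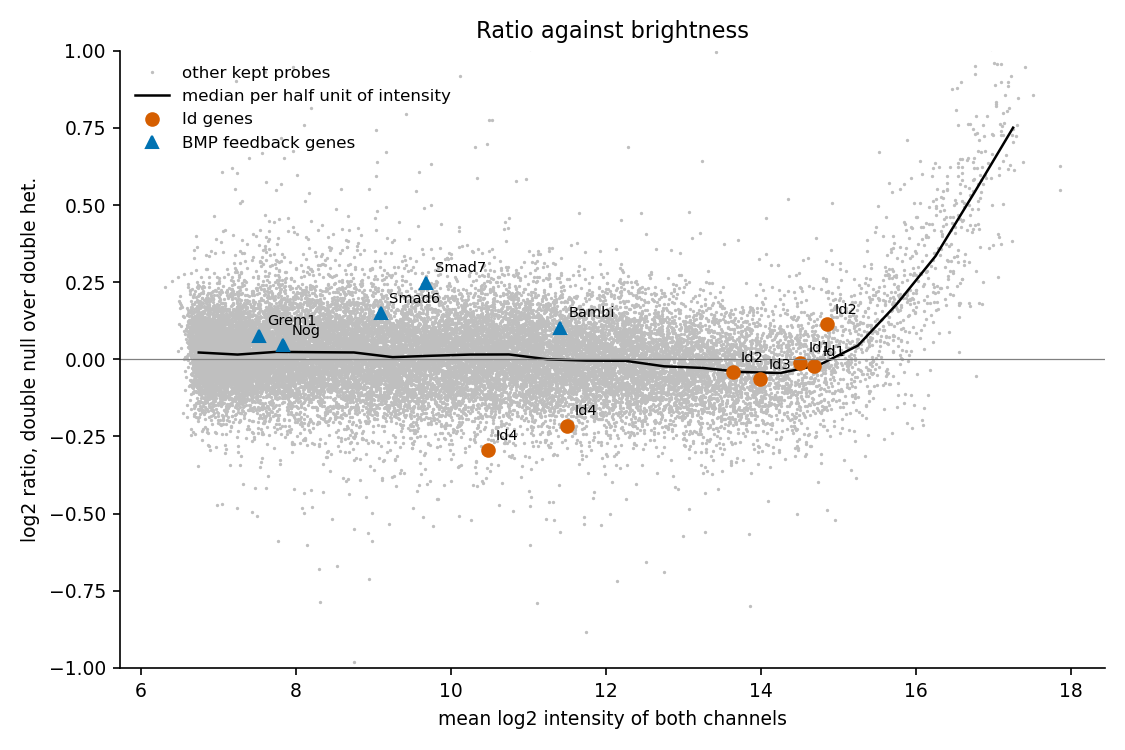
Log2 ratio against mean log2 intensity for all tested probes (grey), the running median (line), the Id genes (circles) and the BMP feedback genes (triangles). 17 probes lie outside the ratio axis. Of the Id and feedback probes, both Id4 probes and Smad7 stand farthest from the line after loess, and none lies on the rising part of the curve above 15.

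The rest of the pathway was described from lists of its parts. Of 118 probes of 9 lists, 1 passed the threshold (limma), against 1.51% of all probes. It belonged to Myod1, the myogenic bHLH factor and a partner of E proteins, with levels of 9.78, 10.83 and 10.92 in double null pools, against 8.68, 9.496 and 9.65 in double heterozygote pools, and a ratio of 1.24 ± 0.061 (limma adjusted p = 0.0030). From the scanner's processed intensities no probe of the array passed, Myod1 included (limma; 4417 probes had an unadjusted p under 0.05), although the mean ratio of Myod1 there was 1.36. The other 8 lists had no call. The BMP ligands (8 of 15 genes kept, 10 probes) had a median of 0.05. Bmp7, the brightest of them, gave -0.15 ± 0.062 (limma adjusted p = 0.240), and Gdf6, with the largest ratio, 0.24 ± 0.048 (limma adjusted p = 0.074). The Gdf6 probe was dim, with a mean log2 intensity of 6.74. Its mean ratio from the scanner's processed intensities was 0.82, so the size of its ratio depended on the processing. The receptors and co-receptors (10 of 11 genes, 16 probes) had a median of -0.01, from -0.16 for the type II receptor Acvr2b to 0.14 for the co-receptor Rgma, the brightest. Rgma had a mean log2 intensity of 15.19, in the bin above 15 with a median ratio of 0.19. Its mean ratio from the scanner's processed intensities was 0.05.

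The Smads that carry the signal, Smad1, Smad5 and Smad4, had 7 kept probes with a median of 0.02 and no call. Smad4 gave 0.04 on its brightest probe and 0.19 on another. The other antagonists and extracellular modulators (13 of 17 genes, 17 probes) had a median of -0.02. Fstl1, the brightest, gave -0.18 ± 0.050 (limma adjusted p = 0.137), and Sostdc1 gave 0.33, of which array 2 alone gave 0.84. The intracellular modulators of Smad signalling (9 of 10 genes, 18 probes) had a median of 0.01, with Trim33 at 0.11. Ski gave -0.18 on 1 probe, -0.04 on its brightest probe and -0.06 on another. The other transcription factor targets of BMP (13 of 13 genes, 17 probes) also had a median of 0.01. Hey1, the brightest, gave -0.26 ± 0.070 (limma adjusted p = 0.129), and Gata3 gave -0.41 ± 0.114 (limma adjusted p = 0.135) with ratios of -0.76, -0.12 and -0.34 on the 3 arrays. The E proteins, which Id proteins bind, had 10 probes of 3 genes with a median of -0.04, and Tcf12 gave 0.09 on its brightest probe and -0.25 on another. The bHLH and Hes or Hey list had 11 probes with a median of -0.06. The TGF-beta and activin branch (10 of 14 genes, 12 probes) had a median of 0.07, with Tgfbr1 at 0.18 and Lefty1 at 0.27, whose arrays gave 0.74, -2.46 and 2.54.

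**Figure D4:**
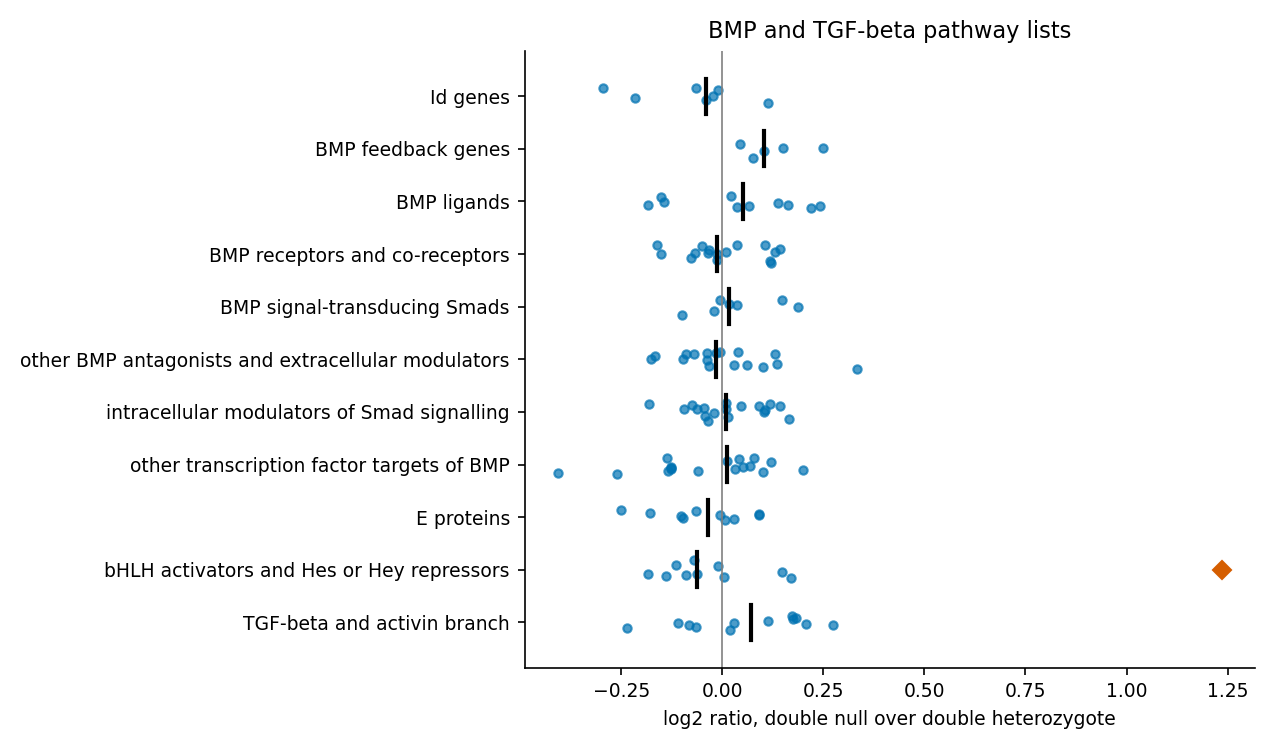
Log2 ratio of every kept probe (dots), grouped into the Id genes, the BMP feedback genes and the 9 other lists, with the list median as a black bar and the called Myod1 probe as a diamond. The feedback genes lie above 0 and the Id4 probes are the lowest of the Id genes after loess (all were above 0 with median centring), while the medians of the other 9 lists lie between -0.06 and 0.07.

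The tissue and the genotypes were checked on the same arrays. The single Fgf3 probe gave -0.69, -0.06 and -0.69 on the 3 arrays (mean -0.48 ± 0.125, limma adjusted p = 0.121), and the single Fgf10 probe gave 0.14 ± 0.085 (limma adjusted p = 0.386). How these probes lie relative to the null alleles is not stated, and they therefore do not settle the labels. Of 13 otic placode markers, 12 were on the array and 11 were kept. Pax2, a defining marker, was not well above background in either channel on any array, and Foxi3 had no probe named for it. The otic list had a median ratio of -0.23 and 1 probe each of Hmx2 and Sox9 fell, with ratios of -0.59 and -0.69 (limma adjusted p = 0.023 and 0.048). Spots above background numbered 27284 to 29177 on an array for the double null and 26452 to 28258 for the double heterozygote, and ratios of pairs of arrays correlated across probes with r from 0.36 to 0.41, where probes are not independent replicates.

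Markers of the cell types that a dissected placode could hold are given beside these values, and their part in the results was not tested. Fewer cells of a type and less RNA per cell cannot be told apart in such pools. The array medians of the otic markers were -0.37, -0.13 and -0.30, beside Id4 probe 1 at -0.35, -0.01 and -0.29 and probe 2 at -0.46, -0.16 and -0.26. Those of the surface ectoderm markers were -0.22, 0.04 and -0.13. Likeness of such values was not tested, because 3 arrays are too few. The summed level of the otic markers, as normalized intensity on a linear scale, was 19811 to 22530 in double null pools, against 25964 to 29988 in double heterozygote pools, without overlap. The hindbrain markers, of which 9 of 9 were kept, had array medians of -0.16, -0.01 and -0.24 and summed levels of 76695 to 89226 in double null pools, against 78641 to 102965 in double heterozygote pools. The neural crest markers (6 of 6 kept) had a median of -0.15, with array medians of -0.09, 0.03 and -0.30. Their summed levels were 35343 to 36952 in double null pools, against 31301 to 44459 in double heterozygote pools. Such sums weigh the brightest genes of a list most. That of the crest list is mostly Crabp1 (mean log2 intensity 14.87), with ratios of -0.30, 0.30 and -0.31 on the 3 arrays. The surface ectoderm markers (9 of 10 kept, Grhl3 with no probe named for it) had a median of -0.11, with 79267 to 93449 in double null pools, against 91121 to 100709 in double heterozygote pools.

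Endothelial markers stood beside the inhibitory Smads, which endothelium expresses. Of 11, 9 were kept and none was called, and Pecam1 and Tie1 were not kept. Their array medians were 0.45, 0.09 and 0.09, beside Smad7 at 0.42, 0.14 and 0.18 and Smad6 at 0.12, 0.32 and 0.01. Their summed level was 11955 to 13918 in double null pools, against 10263 to 11885 in double heterozygote pools. The red blood cell markers (4 of 8 kept, with Hbb-y, Gata1 and Alas2 among those not kept) had array medians of 1.01, -0.36 and 1.59 and summed levels of 789 to 7358 in double null pools, against 981 to 1560 in double heterozygote pools, and the arrays differed in sign. The head mesoderm markers (8 of 8 kept) had a median of 0.11, with array medians of 0.29, -0.11 and 0.06 and summed levels of 26468 to 33567 in double null pools, against 27904 to 33196 in double heterozygote pools. The endoderm markers (5 of 6 kept, Ttr not) had a median of -0.13, with 7505 to 8206 in double null pools, against 7781 to 9026 in double heterozygote pools, and 1 probe of Sox17 fell, with a ratio of -0.54 (limma adjusted p = 0.016).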

How the data were processed

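Total RNA of 3 pools of each genotype was amplified, labelled and hybridised on 3 two-colour Agilent arrays, each with a double null and a double heterozygote pool. Per the submitters' processing notes, the scanner software was Agilent Feature Extraction 9.5.1.1. For each spot the deposited files give mean and background intensity of both channels, a processed intensity, and the log10 of Cy5 divided by Cy3. Log2 ratios make up the authors' deposited series table; they equalled the scanner's log10 ratio on the log2 scale within 2.01e-06, so their direction is Cy5 over Cy3. The column medians of that table were -0.012, -0.0082 and -0.0031, and no further centring was needed to match.

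Background was corrected with normexp (offset 50), each array's log2 ratios were fitted by loess (span 0.3, control spots at weight 0), and spots with outlier marks were left out. Levels per channel were scaled between arrays by Aquantile. Spots of a probe were averaged, and 25514 probes well above background on all 3 arrays in either channel were kept; 25506 gave a test. For each probe, limma 3.58.1 (R 4.3.3; lmFit, then eBayes, on an intercept) compared the mean log2 ratio with 0, and p-values were adjusted by Benjamini-Hochberg over all probes at 0.05. Pairing is by array, since both genotypes of a replicate share one. The arrays shared a slide and a scan session, which leaves no batch of slide or scan to test. Other batches, such as those of amplification or labelling, were not tested. Probes were named by accession, symbol or synonym through RefSeq GRCm38.p6, and kept the name in the files where none matched. The same build gave the promoter windows. Probe positions are those of the deposited files. The fit was tested on simulated data. Precision is limited by how many arrays there are. The labels call the pools biological replicates.

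The members and lists were chosen with earlier results of these data known, so no pattern shown here is independent support. All 9 members were described with every probe; of each other list, every gene with a call and otherwise the brightest kept gene and that with the largest absolute ratio. Some markers are not reported here by name, and the list counts include them. The alternatives were other background corrections, normalizations, sources of intensities, probe filters, probe rules, variance models and thresholds, and each array left out in turn.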

Additional observations from a re-analysis of the deposited data

How the results depend on the processing

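The count of called probes, 384 of 25506, depended on the treatment of the intensities. It was 19476 with median centring, where the median of the tested ratios was 0.33. It was 199 with a normexp offset of 16, 11 with a loess span of 0.1 and 21 up to a mean log2 intensity of 15. It was 993 with an intensity trend in the prior and 1082 at an adjusted p under 0.10. It was 0 from the scanner's processed intensities (4417 at an unadjusted p under 0.05, limma) and 0 from the series table (4469), and 185 with the channels as separate samples and no replicate block. It ran from 86 to 305 when 1 array was left out, lowest without replicate 3. Of the calls 80.7% were higher, against 100% at a span of 0.1, 93.5% without the replicate block, 64.0% with the trend, 95.2% up to 15, 65.2% at 0.10 and 95.3% without replicate 3.

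No member probe was called under 17 of the alternatives; 9 were with median centring and 1, Id4 probe 2, at an adjusted p under 0.10. The calls in the pathway lists were 1 in the main setting, 0 with the processed intensities, the series table or no replicate block, 2 with the trend or at 0.10, and 82 with median centring. With median centring the ratio changed sign for Id1 (0.71 and 0.70), Id2 probe 2 (0.57), Id3 (0.59) and Id4 (0.24 and 0.11). The median of the tested ratios was 0.33 there. Small values near 0 also changed sign: Id1 probe 2 was 0.0010 at a span of 0.1. With 1 array left out, Id1 probe 2 ran from -0.032 to 0.018 (without replicate 3), Id2 probe 2 from -0.068 to 0.00030 (without replicate 2) and Nog from -0.032 (without replicate 2) to 0.087. Under the alternatives other than median centring, Id4 probe 2 ran from -0.36 to -0.21, Id4 probe 1 from -0.32 to -0.15 and Smad7 from 0.16 to 0.30. The cause of these dependences was not tested. Signal over background limits the second Bambi probe, which has no value.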
